A study of Arabidopsis thaliana with 24 samples.

Results

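Genes encoded by the mitochondrial genome were followed in rosettes of Arabidopsis thaliana Col-0, a plant grown on soil, after heat, salt and mannitol. The members are the rows of the deposited table whose gene identifier begins with ATMG and whose deposited estimated counts, summed over the 24 libraries, reach at least 50. They number 84 of the 122 ATMG rows, in a table of 27655 genes that also lists 88 rows of the plastid genome. The last members inside that limit were ATMG01140, ATMG01180 and ATMG01260, with summed estimated counts of 59.4, 58.8 and 54.2. The next rows outside it were ATMG00310 with 46.6 and the pair ATMG00430 and ATMG01150 with 45.5 each. The table describes 32 members, 20 by a product or family, 11 as unknown protein and ATMG01010 as an unknown conserved protein. The other 52 have no description and are named by identifier alone. Values of ATMG00170 equalled those of ATMG00620 in every library, and ATMG00440 likewise equalled ATMG01140, so each pair holds a single measurement.

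The series has 8 groups of 3 biological replicates. The 4 heated groups are salt plus mannitol plus heat, mannitol plus heat, salt plus heat, and heat alone. The 4 unheated groups are salt plus mannitol, mannitol, salt, and control. Salt was 150 mM NaCl and mannitol 200 mM, each given by watering 16 h before sampling, and the double treatment was a mixture that held both. Heated plants spent their last 4 h in a cabinet at 35 °C, and the others stayed at 22 °C. No watering of this kind is recorded for the heat and control groups, so in comparisons with them an effect of watering itself and one of the solute cannot be told apart. Treatments began 14 days after transplanting. All groups are wild type plants of a single ecotype. Whether each replicate is a single plant or pooled plants is not in the labels. The p-values thus reflect differences among these libraries, part of which may be technical. The kit, TruSeq RNA v2, selects RNA with a poly(A) tail and keeps no strand, so reads of a member and of an overlapping row on the opposite strand cannot be told apart. RNA per cell and the number of cells also cannot be told apart in whole rosettes.

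Plant mitochondria keep a small genome that encodes some subunits of the respiratory chain and the ATP synthase, parts of the cytochrome c maturation machinery, and some ribosomal proteins. Nucleus-encoded phage-type RNA polymerases transcribe it, and the transcripts are spliced, edited and trimmed by nucleus-encoded factors. Unlike nuclear messenger RNA, most mature plant mitochondrial transcripts carry no poly(A) tail, and in plant mitochondria a poly(A) tail marks an RNA for decay. A library made by poly(A) selection therefore counts a selected fraction of these RNAs. Chromosome 2 of Arabidopsis holds a large insertion of mitochondrial DNA near its centromere, so many members have a nuclear copy of their sequence.

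One such copy shows how close the sequences are. ATMG01080 encodes the ring-forming subunit 9 of the ATP synthase, and the nuclear gene AT2G07671 holds the same coding sequence with 0 mismatches. The sequence of AT2G07671 is from RefSeq, build TAIR10.1, chr2:3251856-3252080 on the minus strand, 225 bases, with the start codon in capitals.
AT2G07671: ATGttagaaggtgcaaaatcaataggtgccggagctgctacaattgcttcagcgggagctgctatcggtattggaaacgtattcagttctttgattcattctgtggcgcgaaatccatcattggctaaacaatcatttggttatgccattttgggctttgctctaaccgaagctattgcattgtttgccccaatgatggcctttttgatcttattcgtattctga
Reads of ATMG01080 and AT2G07671 could not be told apart by this stretch, and the deposited values of both rows were equal in all 24 libraries.

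Libraries held 12.5 to 19.5 M reads assigned to genes. Of these, 2700 to 7888 reads per heated library and 380 to 1035 reads per unheated library fell on the 84 members. Between 81 and 83 members had at least 1 read in each heated library, against 57 to 70 in each unheated library. Among unheated plants most members therefore rest on few reads, which limits the precision of every fold change given below. Replicates were distinct libraries, since they differed by more than counting noise over all genes (chi-square per degree of freedom 3.21 to 24.05). In 4 libraries the plastid-encoded reads stood apart, with 6264 RPM (reads per M reads of the library) in mannitol plus heat replicate 2, 1293 in salt plus mannitol replicate 2, 959.6 in salt replicate 1 and 956.1 in mannitol replicate 2, against 219.2 to 531.4 in the others. Summed levels of 6 leaf markers ran from 28870 to 42080 TPM (transcripts per M) in heated libraries and from 46890 to 78470 TPM in unheated ones. None of the 6 was at 0 in all libraries. Summed levels of 5 root markers stayed at 0.0536 to 0.946 TPM in heated and 0.176 to 0.807 TPM in unheated libraries, and those of 3 flower markers at 0.0613 to 0.385 and 0.0797 to 0.506 TPM.

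Reads on the members made up a larger share of every heated library than of any unheated one. Only RNA caught by poly(A) selection was counted, and a change in the share of tailed RNA was not tested. The summed level of the 84 members was 180.7, 265.9 and 631.1 RPM as the lowest, median and highest of the 12 heated libraries. In the 12 unheated libraries it was 21.88, 28.06 and 63.21. The ranges do not overlap. Means were 314 ± 125 RPM with heat and 34.8 ± 14.2 without (SD, n = 12 each). The members were chosen by their summed counts over all libraries, a sum that heated libraries dominate, so these sums are a description.

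By library, heat alone gave 259.4, 413.8 and 385.5 RPM, against 21.9, 28.7 and 24.7 in control, a ratio of group means of 14.1. Mannitol plus heat gave 269, 631 and 238 RPM, against 25.3, 53.0 and 31.2 with mannitol alone, a ratio of 10.4. Salt plus heat gave 299.5, 262 and 191 RPM, against 55.2, 26.6 and 27.5 with salt alone, a ratio of 6.90. With salt, mannitol and heat the values were 181, 252 and 389 RPM, against 23.6, 63.2 and 36.3 with salt plus mannitol, a ratio of 6.67. Within each watering, all 3 heated libraries lay above all 3 unheated ones. The unheated libraries at 63.2, 55.2 and 53.0 RPM and the heated library at 631 are the 4 with the high plastid reads. Without those 4, heated libraries spanned 180.7 to 413.8 (n = 11) and unheated libraries 21.88 to 36.3 (n = 9), again with no overlap, while plastid reads spanned 252.8 to 531.4 and 219.2 to 442.4 RPM.

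**Figure D1:**
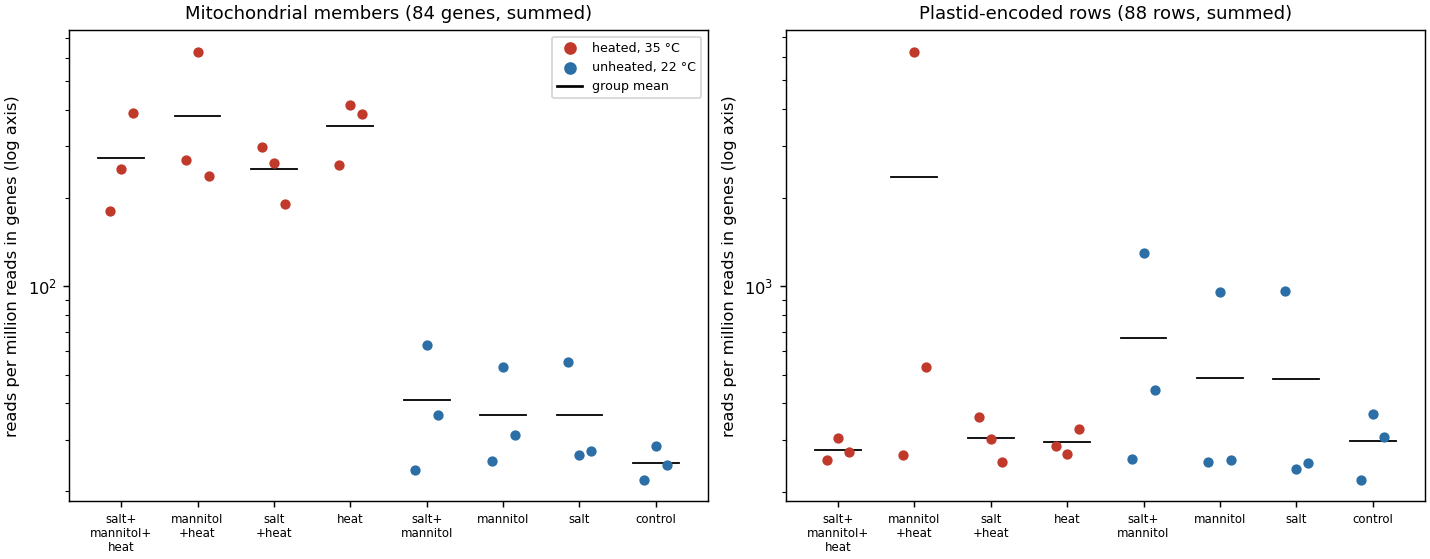
Reads per M reads (RPM) on the 84 mitochondrial members (left) and on the plastid-encoded rows (right), log axes, for the 8 groups. Points are libraries, 3 per group, red for heated and blue for unheated plants, and the black line is the group mean. Mitochondrial shares lie between 180.7 and 631.1 in heated and between 21.88 and 63.21 in unheated libraries, whereas plastid shares overlap between heated and unheated libraries.

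The mean level in TPM was higher with heat for each of the 84 members, although that of ATMG00990 rests on 1 library, mannitol plus heat replicate 2. For 55 of the 84 all 12 heated libraries lay above all 12 unheated ones. Over the 21090 genes of the table with at least 50 reads, 14.4% had that complete separation, and 10.3% had the opposite one, which no member showed. The 84 were admitted by total reads, so a member that is low without heat could enter only through its heated reads and had to differ. For that reason the 31 members with at least 50 reads in the unheated libraries alone are given apart. Among these, 25 were completely separated, and all 31 rose with heat averaged over the 4 waterings. Their log2 fold changes had a median of 3.14 (0.60 to 4.99). Of all genes tested, 79.2% were called in that averaged comparison, 39.6% as higher.

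A test of each gene was made with edgeR's quasi-likelihood F test over all 24 libraries, with p-values adjusted by the Benjamini-Hochberg method over 20027 genes. The words rose and fell are kept for adjusted values under 0.05. A filter on low counts let 61 members into that test. It admits a row that is high in a single group, so a member low without heat could pass through its heated libraries alone. The 23 that did not pass had 54 to 106 reads each, in all 1339 in heated and 254 in unheated libraries, and each of the 23 had a higher mean with heat. Against control, 60 of the 61 rose with heat alone, with a median log2 fold change of 3.98 (1.10 to 8.57), where 62.6% of all genes were called and 31.7% rose. With salt plus heat 60 rose (median 3.47, 0.97 to 7.90; 63.2% of all genes called, 31.7% higher). With mannitol plus heat all 61 tested rose (median 4.06, 0.96 to 8.53; 64.7% called, 32.6% higher). With all 3 treatments 59 rose (median 3.55, 0.75 to 7.66; 65.7% called, 33.0% higher). Of the 31 members with at least 50 unheated reads, 30 rose with heat alone, where 31.7% of all genes rose. No member fell in any of these 4 comparisons with control, which share the same 3 control libraries. The median over all genes tested lay between -0.01 and 0 in each. Scaled by library totals alone, that median was 0.12 with mannitol plus heat and 0.17 with all 3 treatments, and 38.9% and 42.1% of all genes were called higher. The members' counts of 60, 60, 61 and 59 were the same on that scale.

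Averaged over the 4 waterings, heated plants against their unheated partners gave 61 rises among the 61 tested, with a median of 3.35 (0.60 to 7.30). Of all genes 79.2% were called in that comparison, 39.6% as higher. With no filter 66.1% of all genes were called in the averaged comparison, 8182 of 25024 as higher. The 84 members were then all tested, and 82 rose. The other 2 were ATMG00990 and ATMG01020, the second at 1.26 ± 0.60 (SE, edgeR adjusted p = 0.0661). Among the 61, the calls missed in the 4 comparisons with control were those of ATMG00030 in 3 of them and of ATMG00140 with all 3 treatments, at 1.77 ± 0.91 (edgeR adjusted p = 0.0921).

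**Figure D2:**
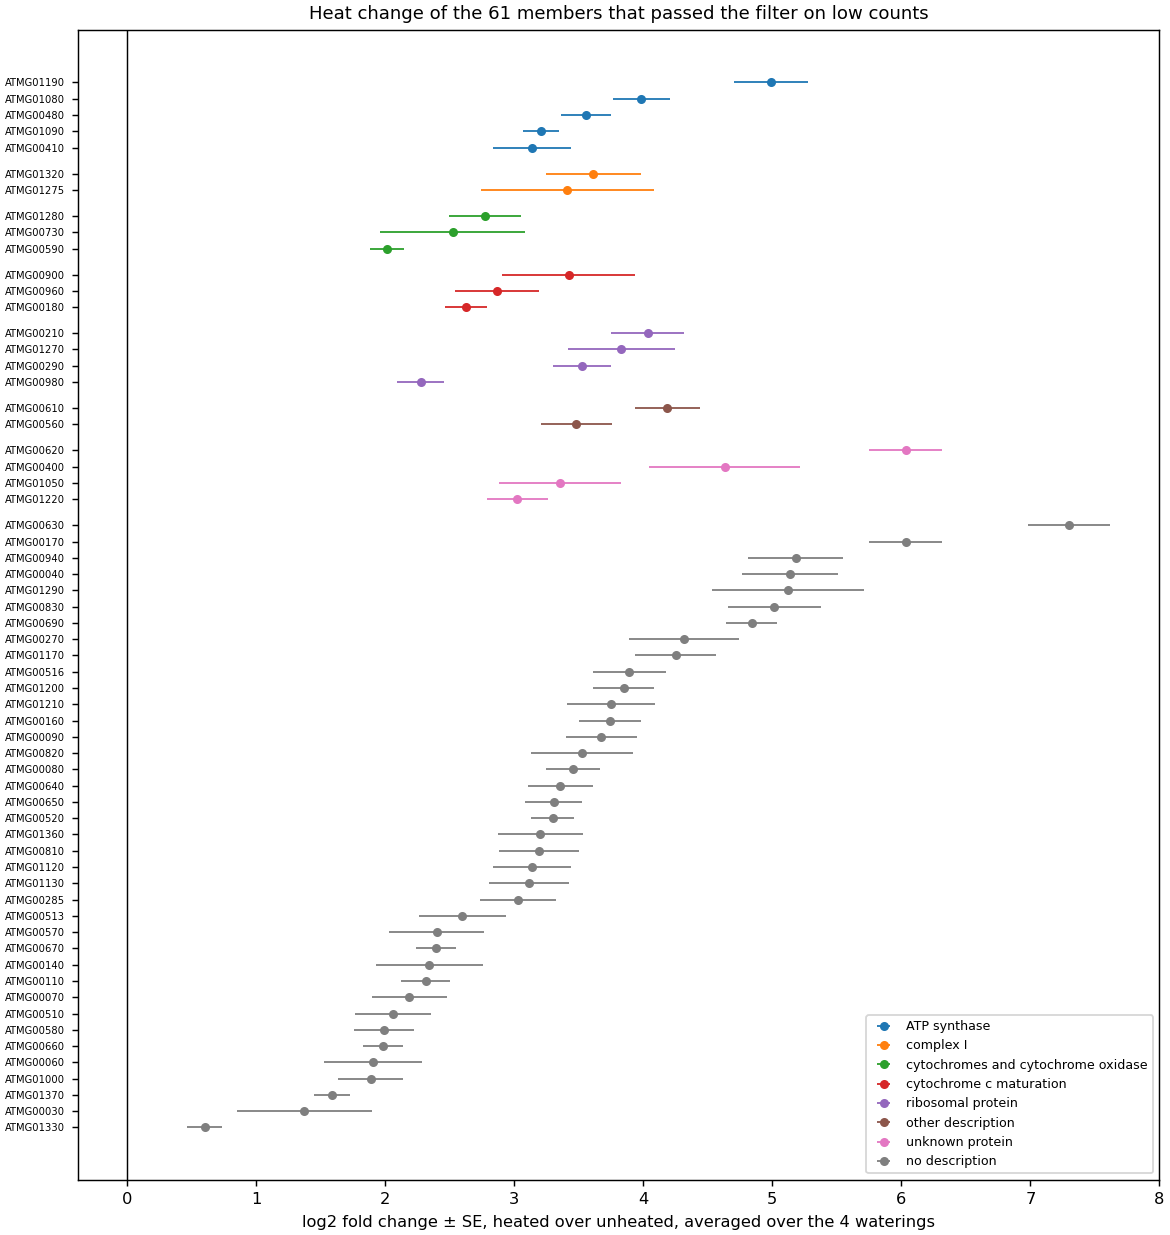
Log2 fold change of heated over unheated plants, averaged over the 4 waterings, for the 61 members that passed the filter on low counts, grouped by role. Points are edgeR estimates, bars are ± 1 SE, and the line marks no change. All points lie right of it, between 0.60 for ATMG01330 and 7.30 for ATMG00630.

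All 5 members described as ATP synthase subunits rose with heat averaged over the waterings, where 39.6% of all genes rose. These 5 members held 30.7% of the members' reads in heated libraries and 13.4% in unheated ones, without the reads listed under nuclear rows. ATMG01190, subunit 1 of the enzyme's catalytic head, held more reads than any other member, and its level with heat alone was 24.1, 45.0 and 40.1 TPM, against 0.439, 0.776 and 0.632 TPM in control. Its level was 11.4, 24.9 and 45.0 TPM as the lowest, median and highest of the heated libraries, and 0.412, 0.738 and 1.79 TPM of the unheated ones. The heated libraries do not overlap the unheated ones. Its log2 fold change was 5.91 ± 0.61 with heat alone (edgeR adjusted p = 2.26e-07) and 4.99 ± 0.29 averaged over the waterings (edgeR adjusted p = 3.34e-11).

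ATMG01080, subunit 9 of the proton-conducting part, had the highest level of the ATP synthase members, at 80.1, 133.5 and 110.1 TPM with heat alone, against 3.36, 4.01 and 3.78 TPM in control. Its 12 heated libraries spanned 50.8 to 133.5 TPM with a median of 72.2, and its 12 unheated ones 2.39 to 10.98 TPM with a median of 4.29, with no overlap. The unheated libraries at 10.98, 8.61 and 7.07 TPM are 3 of those with high plastid reads. The averaged log2 fold change of ATMG01080 was 3.98 ± 0.22 (edgeR adjusted p = 3.19e-12). ATMG00480 (subunit 8), ATMG01090 (listed as an ATP synthase subunit 9) and ATMG00410 (subunit 6, part of the proton channel) rose by 3.56 ± 0.20, 3.21 ± 0.14 and 3.14 ± 0.31 on the averaged log2 scale.

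Complex I, which passes electrons from NADH into the respiratory chain, is represented by 3 described members. Other subunits may be among the undescribed rows. ATMG01320 (NADH dehydrogenase 2B) stood at 0.634, 1.37 and 4.21 TPM as the lowest, median and highest of the heated libraries, against 0, 0.0970 and 0.359 TPM in the unheated ones. Every heated library was above every unheated one, at levels near 1 TPM. ATMG01320 rose by 3.61 ± 0.37 on the averaged log2 scale (edgeR adjusted p = 9.81e-09). Against control, its log2 fold change with heat alone was 4.20 ± 0.77, and 4.85 without control replicate 2. ATMG01275 (NADH dehydrogenase 1A) rose by 3.41 ± 0.67, and its heated and unheated libraries overlapped. Summed with their nuclear rows, the averaged values were smaller, at 2.67 ± 0.25 for ATMG01320 and 2.77 ± 0.44 for ATMG01275. The last of the 3, ATMG00990, did not pass the filter and is described with the nuclear copies.

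The 3 described members of the cytochrome part of the chain rose by 2.01 to 2.77 on the averaged log2 scale, beside a median of 3.35 over the 61. In that comparison 39.6% of all genes rose. Undescribed rows may hold others of this part. ATMG00590, described as a cytochrome b/b6 protein, stood at 1.62, 1.92 and 3.08 TPM in heated libraries (lowest, median, highest), against 0.273, 0.583 and 0.690 TPM in unheated ones. The 2 ranges are well apart although the change is among the smaller ones, at 2.01 ± 0.13 averaged over waterings (edgeR adjusted p = 1.56e-12). ATMG01280 (described as cytochrome c oxidase subunit II-like) rose by 2.77 ± 0.28 and ATMG00730 (cytochrome c oxidase subunit 3) by 2.52 ± 0.56. ATMG01280 was separated between heated and unheated libraries, and ATMG00730 was not. With 41.5 and 30 unheated reads, both could enter the members only through their heated reads. The heat-alone value of ATMG01280, 3.98 ± 0.63, was 5.24 without control replicate 3. Whether these roles differ from each other in their change was not tested.

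Cytochrome c maturation attaches heme to cytochrome c, and its 3 described members rose, beside 39.6% of all genes in the averaged comparison. ATMG00180, a cytochrome c biogenesis protein, stood at 1.83, 2.60 and 5.89 TPM in heated libraries, against 0.134, 0.441 and 0.828 TPM in unheated ones (lowest, median, highest), with no overlap. Its averaged log2 fold change was 2.63 ± 0.16 (edgeR adjusted p = 5.54e-13). ATMG00900 and ATMG00960, of the same machinery, rose by 3.42 ± 0.51 and 2.87 ± 0.32. Their unheated reads were 11.2 and 41, so both could enter the members only through heated reads.

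In the averaged comparison 39.6% of all genes rose, and 14.4% of genes with at least 50 reads were completely separated. The 4 described ribosomal proteins all rose, and all 4 were completely separated. ATMG00980, of the ribosomal protein S12/S23 family, had the highest level among them, 11.8, 20.2 and 30.6 TPM in heated libraries (lowest, median, highest), against 2.43, 4.39 and 5.94 TPM in unheated ones. Its averaged log2 fold change was 2.27 ± 0.18 (edgeR adjusted p = 3.15e-10). ATMG00210 (L5), ATMG01270 (S7) and ATMG00290 (S4) rose by 4.04 ± 0.28, 3.83 ± 0.42 and 3.52 ± 0.22. With 35, 11 and 38.5 unheated reads, they could enter the members only through their heated reads.

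Of the members with another description, ATMG00610, a putative membrane lipoprotein, stood at 2.27, 2.74 and 5.33 TPM in heated libraries, against 0.0565, 0.166 and 0.443 TPM in unheated ones (lowest, median, highest). The groups do not overlap, and its averaged log2 fold change was 4.19 ± 0.25 (edgeR adjusted p = 4.20e-13). Against control, heat alone gave 4.11 ± 0.46, and 4.998 without control replicate 1. ATMG00560, a nucleic acid-binding protein with an OB fold, rose by 3.48 ± 0.28, and by 1.60 ± 0.17 when summed with its nuclear row. Of the 11 unknown proteins, 4 passed the filter and 4 rose, beside 39.6% of all genes in the averaged comparison. These 4 may have passed the filter through their heated libraries alone.

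The largest averaged changes were in rows with no description or listed as unknown protein, some of whose products may be known elsewhere. ATMG00630, which has no description, stood at 8.24, 12.1 and 24.6 TPM in heated libraries (lowest, median, highest), against 0, 0 and 0.734 TPM in unheated ones. It had 686 reads in the 12 heated libraries and 6 in the 12 unheated ones, with no overlap and an averaged log2 fold change of 7.30 ± 0.32 (edgeR adjusted p = 5.50e-14). ATMG00620, listed as an unknown protein, stood at 4.74, 8.32 and 21.2 TPM, against 0, 0.144 and 0.273 TPM, and rose by 6.03 ± 0.28 (edgeR adjusted p = 3.12e-15). ATMG00940, ATMG00040 and ATMG00830 followed with averaged changes of 5.18 ± 0.37, 5.14 ± 0.37 and 5.02 ± 0.36. Another unknown protein, ATMG00400, rose by 4.63 ± 0.58, by 5.27 without salt plus mannitol replicate 3, and by 3.67 ± 0.28 when summed with its nuclear row.

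Several of these had no read in the 3 control libraries, so their fold with heat alone is a lower bound, computed against 3 counts over the control group. ATMG00830, with 152.7 estimated reads with heat alone, was at least 49.4-fold higher, and ATMG00040, with 103.1, at least 33.4-fold. ATMG00940, with 57 reads, was at least 18.4-fold higher, and ATMG00400, with 28, at least 9.06-fold. Their fitted changes depend on a prior count and are no bounds. With the 5 such members that passed the filter placed at their bounds, the median over the 61 was 3.90 with heat alone, 3.32 with salt plus heat, 4.02 with mannitol plus heat and 3.48 with all 3. With 1 control read, ATMG00270 had a ratio of 107.9 per read sequenced (95% exact binomial interval 19.0 to 4301, which covers counting error only), and its fitted log2 value of 6.24 became 8.12 without control replicate 3. With 2 control reads, ATMG00630 had a ratio of 84.4 (23.03 to 702.7). The log2 value of ATMG00620 with heat alone, 5.83 ± 0.55, was 4.92 ± 0.52 when summed with its nuclear row AT2G07722.

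**Figure D3:**
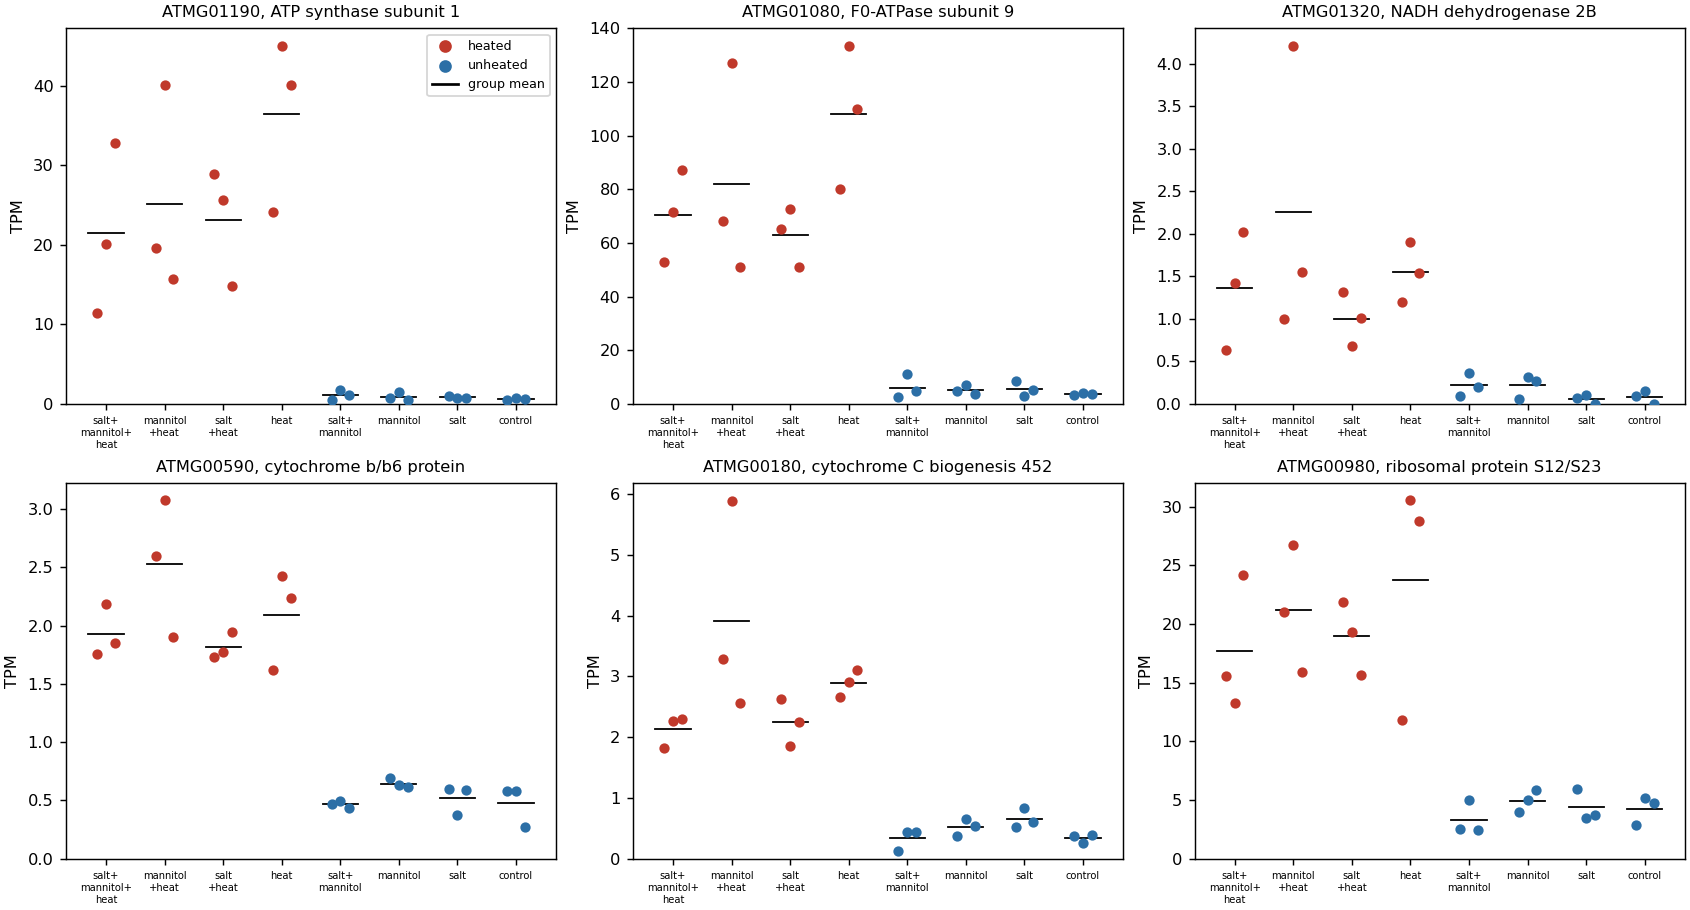
Levels in TPM (linear axes from 0) of ATMG01190, ATMG01080, ATMG01320, ATMG00590, ATMG00180 and ATMG00980 in the 8 groups, with 3 libraries per group as points, red for heated and blue for unheated, and the group mean as a line. In all 6, every heated library lies above every unheated one, and ATMG01190 runs from 11.4 to 45.0 TPM in heated and from 0.412 to 1.79 TPM in unheated libraries.

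The mix of member reads differed between heated and unheated libraries, as did their share of all reads. As a share of all member reads in a library, ATMG01190 held 15.4% to 25.2% in heated libraries and 3.17% to 7.40% in unheated ones. Pooled over libraries, that is 20.5% and 5.74%. In 5 further members the share was also higher in all heated than in all unheated libraries. Pooled shares were 5.48% and 1.65% for ATMG00690, 4.39% and 2.41% for ATMG01080, 1.32% and 0.166% for ATMG00620 and for its equal ATMG00170, and 1.20% and 0.0856% for ATMG00630, heated libraries first. In 2 members the share was lower in all heated libraries, at 2.02% and 4.52% for ATMG00580 and 0.536% and 3.14% for ATMG01330. Shares in a library add up to a whole, so a higher share for ATMG01190 alone lowers those of the others. They also leave out reads listed under nuclear rows, which differ between members. For ATMG01190, the nuclear row AT2G07698 held 5767 further reads in heated and 186 in unheated libraries. Without ATMG01190, the remaining members averaged 251 ± 104 RPM in heated and 32.8 ± 13.3 in unheated libraries (SD, n = 12 each). The 10 members with the most reads held 53.7% of member reads in heated and 51.0% in unheated libraries.

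ATMG01330, with no description, changed least. Its level was 3.11, 4.61 and 5.41 TPM in heated libraries (lowest, median, highest), against 1.64, 2.95 and 4.52 TPM in unheated ones. The ranges overlap. Its averaged log2 fold change was 0.60 ± 0.13 (edgeR adjusted p = 3.01e-04), with 1.10 ± 0.27 for heat alone against control. Its call with all 3 treatments, at 0.75, was lost when control replicate 1 or 3 or replicate 2 of that group was left out, and with DESeq2 (0.76, adjusted p = 0.0619). ATMG00690 and ATMG00580, also without description, rose by 4.84 ± 0.20 and 1.99 ± 0.23 averaged over waterings.

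**Figure D4:**
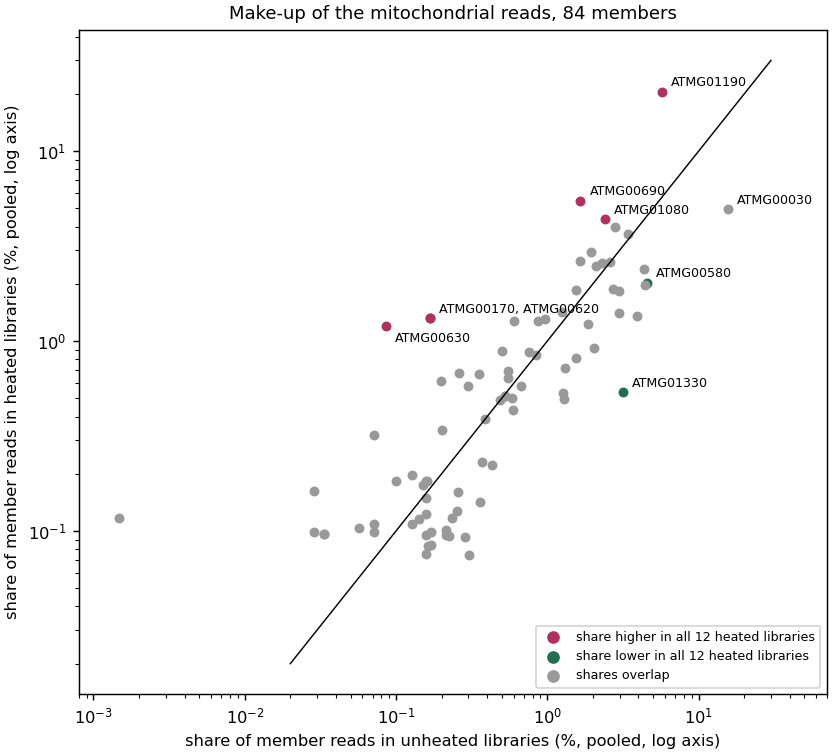
Share of each member in all member reads, pooled over the 12 heated libraries (vertical, %) and the 12 unheated libraries (horizontal, %), log axes, with the line of equal shares. Colour marks members whose share is higher, or lower, in all heated libraries than in all unheated ones. ATMG01190 is at 20.5% and 5.74%, and ATMG01330 at 0.536% and 3.14%.

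ATMG00030 has no description and had the highest level of the undescribed rows, and in 3 of the 4 libraries with the most plastid reads it was above all other libraries. It stood at 24.7, 35.3 and 341.4 TPM in heated libraries (lowest, median, highest), against 6.06, 9.71 and 65.7 TPM in unheated ones, and the ranges overlap. The values of 341.4, 65.7, 51.0 and 43.9 TPM belong to mannitol plus heat replicate 2, salt plus mannitol replicate 2, salt replicate 1 and mannitol replicate 2, the 4 libraries with the most plastid reads. Without them the heated libraries spanned 24.7 to 47.4 TPM (n = 11) and the unheated ones 6.06 to 23.5 TPM (n = 9), with no overlap. The part of plastid reads in this row's values was not tested.

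In the fit of all libraries, edgeR gave ATMG00030 log2 fold changes of 2.04 ± 1.12 with heat alone (adjusted p = 0.123), 1.52 ± 1.17 with salt plus heat (0.270) and 1.74 ± 1.16 with all 3 treatments (0.196). Without the 4 libraries, edgeR gave the same 3 values of 2.04, 1.52 and 1.74 with adjusted p = 1.64e-04, 0.00236 and 7.39e-04. The value for mannitol plus heat was 3.69 with all libraries and 1.61 without replicate 2 of that group (edgeR adjusted p = 0.161 with that library alone left out, 0.00308 with all 4 left out). The averaged value was 1.37 ± 0.52 (edgeR adjusted p = 0.0239), 0.85 (edgeR adjusted p = 0.0741) without that same library, and 1.85 (edgeR adjusted p = 9.51e-07) without the 4. No other named member lost its averaged call when a library was left out.

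**Figure D5:**
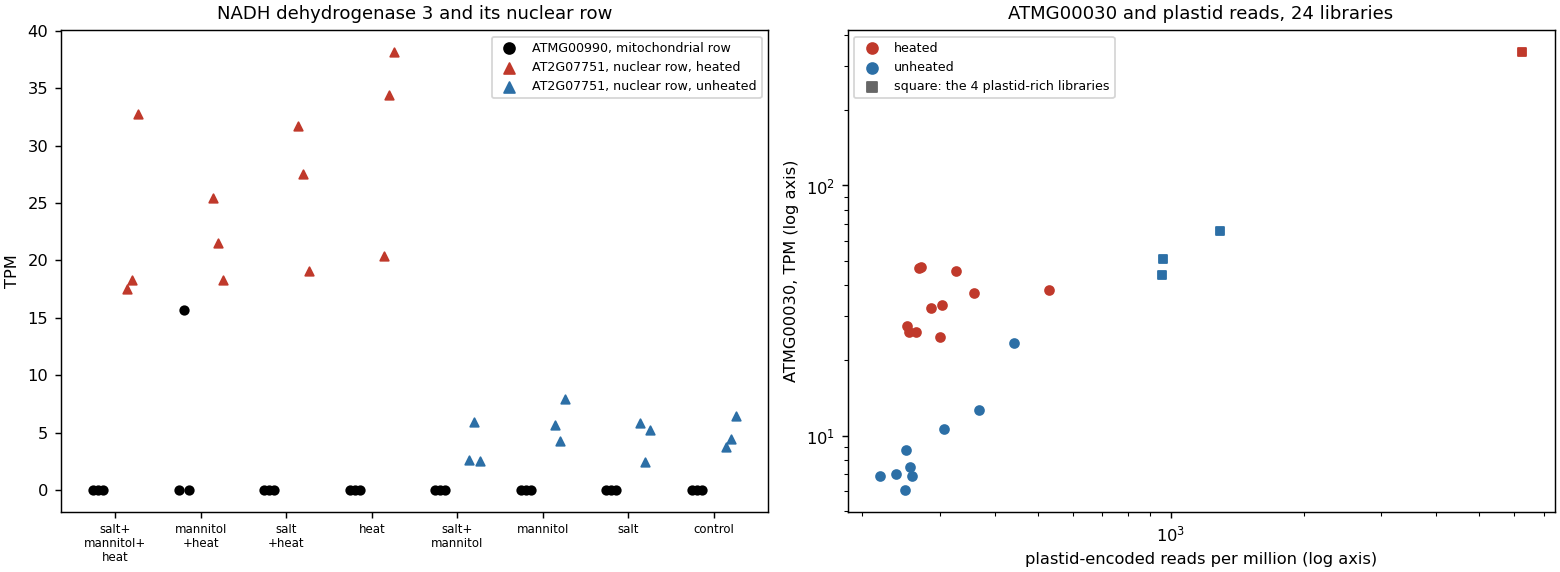
Left, TPM of ATMG00990 (NADH dehydrogenase 3, circles) and of its nuclear row AT2G07751 (triangles) in the 8 groups, 3 libraries each. Right, TPM of ATMG00030 against plastid-encoded reads (RPM), log axes, 24 libraries, with squares for the 4 libraries richest in plastid reads. ATMG00990 is off 0 in a single library, at 15.7 TPM, and ATMG00030 is highest, at 341.4 TPM, in the library with 6264 RPM of plastid reads.

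Nuclear copies share reads with many members. By description, 32 members have a nuclear row of the table named for them, and for 14 of these both rows had equal values in all 24 libraries (tolerance 0.01 reads), as for ATMG01080 and AT2G07671. In 1 more member the values equalled those of a nuclear row not named for it. The other 51 members had neither in this table. For 6 of the 51 the annotation names a nuclear gene that is not a row of the table, and ATMG00170 equals ATMG00620, which has such a row. The split therefore does not say which members lack a nuclear copy of their sequence. Of the 33 mitochondrial coding sequences in RefSeq TAIR10.1, 23 aligned to chromosome 2 over at least 98% of their length, 18 of them with 0 mismatches. For these members the table cannot say whether a read came from the mitochondrion or from the nucleus.

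Members with and members without such a row in the table rose. With heat alone, 23 of the 23 that passed the filter and have such a row rose (median log2 fold change 4.20), and 37 of the 38 that have none in the table (median 3.81). With heat averaged over waterings, 23 of 23 and 38 of 38 rose. Of all genes, 31.7% rose with heat alone and 39.6% in the averaged comparison. Both classes may hold members that passed the filter through their heated libraries alone. Members with no such row held 55.5% of the member reads in heated and 70.5% in unheated libraries. When each member was summed with its nuclear rows, 69 members passed the filter and 68 rose with heat alone. There 62.6% of all genes were called, 6329 of 20013 as higher. Of 23 members tested both alone and summed, the averaged fold change moved by over 1.5 times in 4, all to smaller values (ATMG00400, ATMG00560, ATMG01275 and ATMG01320), and with heat alone in 8, to smaller values in 6. The averaged change of ATMG01190 summed with AT2G07698 was 5.02 ± 0.27.

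For NADH dehydrogenase 3, a complex I subunit, the reads were listed under the nuclear row. ATMG00990 had 66 reads in heated libraries, all of them in mannitol plus heat replicate 2 (15.7 TPM), and 0 in unheated libraries. Its nuclear row AT2G07751 stood at 17.5 to 38.2 TPM in heated libraries and 2.42 to 7.93 TPM in unheated ones, with no overlap. In mannitol plus heat replicate 2 itself AT2G07751 was at 21.6 TPM. The sum of both rows rose by 2.50 ± 0.20 on the averaged log2 scale (edgeR adjusted p = 3.73e-10). Of the rows from AT2G07560 to AT2G07835, the stretch of chromosome 2 that holds these copies, 50 of 103 passed the filter. With heat alone 44 rose and 2 fell, beside 31.7% and 30.9% of all genes. A row could pass through its heated libraries alone. Rows named for members are among the 103 and share reads with them, so this count is no separate result.

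Without heat no change of a member passed the test. Against control, salt gave median log2 fold changes of 0.37, mannitol of 0.43 and both together of 0.45 over the 61 members. No member was called by edgeR in any of these 3 comparisons, which share their control libraries, where 10.9%, 23.6% and 32.6% of all genes were called. At an unadjusted p under 0.05 there were 4, 1 and 2 members. DESeq2 called 1 member with salt, ATMG00830, and 1 with mannitol, ATMG00516. Without the 4 plastid-rich libraries the medians were 0.05, 0.23 and 0.06. For ATMG01190 the log2 fold changes were 0.42 ± 0.90 with salt, 0.48 ± 0.86 with mannitol and 0.85 ± 0.83 with both. ATMG01280 came nearest to a call, at 2.03 ± 0.80 with both (unadjusted p = 0.018, from 3.8 estimated control reads).

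The heat change did not differ detectably between waterings for any member. Tests of the difference itself (interaction terms) called 0 of the 61 members for salt, for mannitol and for both, where 1.40%, 8.78% and 5.58% of all genes were called. At an unadjusted p under 0.05 there were 8, 3 and 4 members. Median interaction values were -0.81, -0.43 and -0.89 on the log2 scale, with 4, 22 and 10 of the 61 values above 0, so most estimated heat changes were smaller in watered plants. The 3 terms share the heat and control libraries. Without the 4 plastid-rich libraries the medians were -0.52, -0.59 and -0.63. For ATMG01190 the 3 interaction values were -1.06 ± 0.99, -1.02 ± 0.95 and -1.61 ± 0.92.

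Plastid-encoded genes were set beside the mitochondrial ones as the other organelle genome. Of the 81 plastid rows tested, 4 rose and 3 fell with heat alone, 4 and 3 with salt plus heat, and 1 and 5 with all 3 treatments, where 62.6%, 63.2% and 65.7% of all genes were called. With mannitol plus heat 45 rose and 1 fell (64.7% of all genes called), and without the 4 plastid-rich libraries 7 of 68 rose and 4 fell (58.6% called). Averaged over waterings, 7 rose and 5 fell with all libraries, with a median log2 fold change of -0.02 (79.2% called).

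Nuclear genes whose products act on mitochondrial RNA were followed from lists chosen by function. Of 5 RNA polymerases and decay factors, 3 rose and 1 fell with heat alone (median log2 fold change 1.38). The RNA polymerase AT5G15700 rose by 1.60 ± 0.15 and the polynucleotide phosphorylase AT5G14580 by 1.75 ± 0.21, while the RNA helicase ATSUV3, which acts in RNA turnover, fell by 0.46 ± 0.10 on the log2 scale. Of 27 splicing, editing and processing factors, 17 rose and 2 fell with heat alone (median 0.62), where 62.6% of all genes were called, 31.7% as higher and 30.9% as lower. MORF1, an editing factor, rose by 1.53 ± 0.12 and RUG3, a splicing factor, by 1.58 ± 0.15. Without heat, none of the 5 was called with salt, 4 rose and 1 fell with mannitol, and 3 rose and 1 fell with both. Of the 27, 3 rose and 0 fell with salt, 8 rose and 1 fell with mannitol, and 7 rose and 1 fell with both. Of all genes, 10.9%, 23.6% and 32.6% were called in those 3 comparisons.

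With heat alone, few nuclear genes of the respiratory chain and the ATP synthase rose. Of 20 such genes, 3 of which encode subunits of succinate dehydrogenase, a complex with no described member, 1 rose and 11 fell (median -0.19), beside 31.7% and 30.9% of all genes. Without heat, 0 rose and 1 fell with salt, none was called with mannitol, and 8 rose and 0 fell with both. The one that rose with heat was CYTC-2, a cytochrome c, at 1.29 ± 0.13, whereas CI51, a subunit of complex I, was at -0.52 ± 0.07. Of 16 genes of alternative respiration and the mitochondrial stress response, 11 passed the filter, and with heat alone 5 rose and 5 fell (median -0.24), again beside 31.7% and 30.9% of all genes. Without heat, 0 of the 11 rose and 1 fell with salt, 4 rose and 0 fell with mannitol, and 5 rose and 0 fell with both. Beside these counts for the 20 and the 11, 10.9% of all genes were called with salt, 23.6% with mannitol and 32.6% with both. With heat alone AT2G21640, a marker of oxidative stress, rose by 3.12 ± 0.17, NAC13, a regulator of the mitochondrial stress response, by 1.54 ± 0.16, and AOX1A, an alternative oxidase, by 1.22 ± 0.18. NDA1, an alternative NADH dehydrogenase, was at -1.97 ± 0.10. Averaged over the waterings, 4 of the 11 rose and 7 fell (median -0.43), beside 39.6% and 39.6% of all genes. Leaf markers, which are photosynthesis genes in the main, fell in 5 of 6 with heat alone (median -0.68), and the part of this in the members' shares was not tested.

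Outside the mitochondrial genome, the genes whose level was most like the summed member share over the 24 libraries were AT1G51200, TPR2, AT3G25590, AT3G47680 and AT5G18340, with Pearson's r of 0.973, 0.972, 0.971, 0.968 and 0.968 on the log2 scale. The 24 libraries fall into heated and unheated groups, and r takes in the difference between them. The level of AT1G51200, a zinc finger protein, had medians of 516.8 TPM in heated and 224.2 TPM in unheated libraries, and that of TPR2 15.7 and 5.65 TPM.

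In the authors' deposited table, q-values were listed for 65 members with heat alone, and all 65 had q under 0.05 and a positive fold change, where 77.9% of all genes with a q-value were called and 39.4% were higher. The authors' deposited table gave 57 of 57 with salt plus heat (84.1% and 42.1%), 60 of 60 with mannitol plus heat (82.7% and 41.8%) and 59 of 59 with all 3 (86.9% and 43.6%). Without heat, the authors' deposited table called 0 of 28 members with salt, 0 of 28 with mannitol and 0 of 31 with both, where 8.29%, 13.1% and 35.8% of all genes were called.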

How the data were processed

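The data are 24 libraries from rosettes, 3 per group. Per the submitters' processing notes, reads were handled with CASAVA, kallisto 0.45.1 and sleuth 0.30.0. The genome build and the CASAVA version are not given in the sources used here. The deposited estimated counts were multiples of a constant of 0.797 to 1.25 per library (94.9% to 95.4% of low values whole), which was divided out before rounding. The TPM values deposited by the authors are a signal rescaled per library (sums 0.920 to 1.12 M), used for levels. The q-values (p-values corrected by sleuth) and the natural log fold changes deposited by the authors, per the file headers, were used only for their own calls. Depth was 12.5 to 19.5 M reads per library.

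Counts were fitted over all 24 libraries in edgeR 4.0.16 under R 4.3.3, using filterByExpr, TMM factors and the robust quasi-likelihood test, which left 20027 genes. SE is the absolute log2 fold change over the square root of F. The steps were tested on simulated data. Members, lists, roles and tests were chosen with earlier results of these data known. Named members are the one with the highest mean TPM in each role and, per comparison, up to 5 called members with the largest rise or fall at a mean of at least 1 TPM. ATMG01190, ATMG00690, ATMG01330, ATMG00580, ATMG00990 and ATMG01280 were added after their values were seen. Roles follow the table's descriptions. The copies were aligned with blastn 2.17.0+. Coordinates of 26643 nuclear genes overlapped those in TAIR10.1 for 99.996%. Alternatives were DESeq2 1.42.0, RLE factors, totals alone, factors from nuclear genes, no filter, deposited counts undivided, limma 3.58.1 on log2(TPM + 1), compared groups only, the replicate block and each library left out. Leaving out the 4 plastid-rich libraries, summing members with nuclear rows and leaving out ATMG01190 were chosen after seeing the data.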

Additional observations from a re-analysis of the deposited data

Results flagged for a closer look

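The 38 mitochondrial rows under the limit of 50, which enter no comparison, also held reads. Their summed share was 1.48, 3.57 and 4.62 RPM as the lowest, median and highest of the 12 heated libraries (637 reads), against 0.306, 0.426 and 0.962 in the 12 unheated ones (108 reads). The heated median of 3.567 lies above the highest control library, 0.586.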

How the results depend on the processing

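Every member called in the 4 comparisons of heated groups with control, and in the averaged comparison, was higher with heat under all alternatives run. Leaving out each library in turn gave 60 to 62 calls for heat alone, 56 to 61 for salt plus heat, 59 to 63 for mannitol plus heat, 52 to 61 for all 3 treatments and 60 to 63 averaged. Other alternatives gave 51 to 75, 47 to 68, 51 to 77, 49 to 72 and 61 to 82. Without heat, leaving out each library gave 0 calls for salt, 0 for mannitol and 0 to 1 for both (ATMG01280 or ATMG00830). DESeq2 gave 1 for salt and 1 for mannitol, and library totals alone 1 for both (ATMG01280). The interactions gave 0, 0 and 0 to 1 calls (ATMG01280, lower, without salt plus mannitol plus heat replicate 3). The cause of these was not tested. The replicate numbers gave no sign of pairing. Same-numbered libraries of different groups correlated at a mean of -0.036 (-0.887 to 0.756), against 0.020 (-0.757 to 0.867) for different numbers. Of the 24 libraries, 4 were closest to their own number. With 3 libraries per group and such wide ranges, this cannot show that no batch was shared. With the replicate block the counts were 60, 60, 61, 59 and 61 with heat, and 0 elsewhere. On deposited TPM the summed share was 471 per M TPM in heated and 69.3 in unheated libraries. Without ATMG01190 it was 251 and 32.8 RPM. A limit of 10 would give 110 members and one of 240 would give 49. Of 7998 values of named members under alternatives, 7975 kept their side of the threshold and no called value changed direction. Leaving out ribosomal RNA rows was not run, since none was among the rows used. Depth limits the unheated side, where members had 380 to 1035 reads per library in all.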
